A study of Mus musculus with 2 samples.

Results

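Glutamine, glutamate, aspartate, asparagine and proline are linked by a short set of enzymes, and 8 of their genes are described here: Gls2, Glul, Glud1, Got1, Got2, Asns, Aldh18a1 and Pycr1. The genes were listed by name, with earlier results of these data known, and each was found as 1 entry among the 21983 gene entries of the deposited count table. They were measured in 14837, a line of tumour cells from pancreatic ductal adenocarcinoma (PDAC) of C57BL/6 mice, kept for 48 h in medium conditioned by cancer-associated fibroblasts (CAFs). Conditioned medium is culture medium in which other cells have grown. The labels also describe a library of the same line kept for 48 h in medium conditioned by 14837 cells themselves, but 1 of the 2 value columns bears a name that fits neither label and was left aside. The levels below therefore come from the CAF-medium library alone, and they do not show what the CAF medium changed. Before treatment the line was grown in DMEM with 10% serum. Neither the labels nor the table say whether the conditioned media still held glutamine, asparagine or proline.

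Glutaminases such as the product of Gls2 split glutamine into glutamate and ammonia, and glutamine synthetase (Glul) runs the opposite conversion. Glutamate gives its nitrogen to oxaloacetate through the aspartate aminotransferases Got1, in the cytosol, and Got2, in mitochondria, which makes aspartate, a precursor of purines and pyrimidines. Asparagine synthetase (Asns) moves nitrogen from glutamine onto aspartate, and the pair Aldh18a1 and Pycr1 turns glutamate into proline in mitochondria. Asns is a classical target of ATF4, the transcription factor of the response to amino acid shortage, and is known for a short promoter element, TGATGNAA in its core, that ATF4 and C/EBP factors bind together.

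The core was looked for in the promoters of the genes, from 250 bases before to 50 bases after the RefSeq start site (GRCm38.p6), on both strands. Promoters of 7 of the 8 genes were matched, all but Gls2, and 3 of them held the core: Asns, Pycr1 and Got1. Across all 32851 promoters of the same length, 3.97% held it, and 4.51% of their 27025 genes held it in any promoter. Asns is known for this element, so its match was foreseen. The stretches are shown because they carry this element, with the core in capitals, 5′ to 3′ along the gene's own strand.
Asns: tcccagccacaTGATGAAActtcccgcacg
Pycr1: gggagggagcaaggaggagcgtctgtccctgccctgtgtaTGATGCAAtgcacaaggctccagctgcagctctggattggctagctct
Got1: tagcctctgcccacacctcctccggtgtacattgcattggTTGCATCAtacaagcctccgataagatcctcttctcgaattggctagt
The Asns stretch is chr6:7693214-7693243 on the minus strand, and its core begins 23 bases before the RefSeq start. The GENCODE annotation of the same build places the outermost start of Asns farther out, so that the core begins 22 bases downstream of that start, inside the annotated gene. The Pycr1 stretch is chr11:120643804-120643891, minus strand, with the core beginning 103 bases before the start. The Got1 stretch is chr19:43524660-43524747, minus strand, with the core on the opposite strand, 102 bases before the start. The core was not in the windows of Glul, Glud1, Got2 and Aldh18a1. These are matches of letters. Binding was not measured, and a link between the core and the levels shown next was not tested.

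The CAF-medium library held 21269197 counts, and 11567 genes had at least 10 of them. Levels are counts per 1000000 counts of the library (CPM). Because the medium had a single library, no spread between cultures could be given and nothing was tested. Intervals are exact Poisson 95% intervals, which cover counting error only. The epithelial origin given by the labels was matched by 7 of 8 ductal tumour cell markers at 10 counts or more, keratin genes among them. All 8 markers summed to 4032 CPM, although Epcam had 2 counts. Fibroblast markers summed to 37.0 CPM, of which Pdgfra made 34.2 CPM, and Col1a2, Col3a1, Dcn and Lum were listed at 0. Immune markers summed to 5.74 CPM and endothelial markers to 0.235 CPM. Of 4 acinar markers, Cela1 had 10 counts and the others were listed at 0. A count of 0 is drawn and limited at 3 counts (0.141 CPM, one-sided at 95%), beside an upper end of 0.173 CPM for the kind of exact interval that all other counts have. However, the respiratory genes Atp5a1 and Uqcrc1 were also listed at 0, so a gene at 0 is not called unexpressed.

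The 8 genes together took 52374 counts, or 0.246% of the library, and all had at least 10 counts. Asns and Aldh18a1 alone made up 58.9% of these counts. The level exceeded 100 CPM in 6 of the 8 genes, against 23.7% of all genes with at least 10 counts. The median of the 8 genes was 255 CPM, beside 37.9 CPM for the median gene with at least 10 counts. The genes ran over a 76.2-fold span in CPM, or a 96.8-fold span per kilobase of exon. In CPM, and per kilobase of all exons, the order was Asns, Aldh18a1, Got1, Glud1, Got2, Glul, Pycr1 and Gls2. Every neighbouring pair in that order differed by more than counting error on both scales. With the length of the longest transcript in place of all exons, Glud1 and Got2 changed places, with Got2 at 1.07 times Glud1 (1.03 to 1.11).

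**Figure D1:**
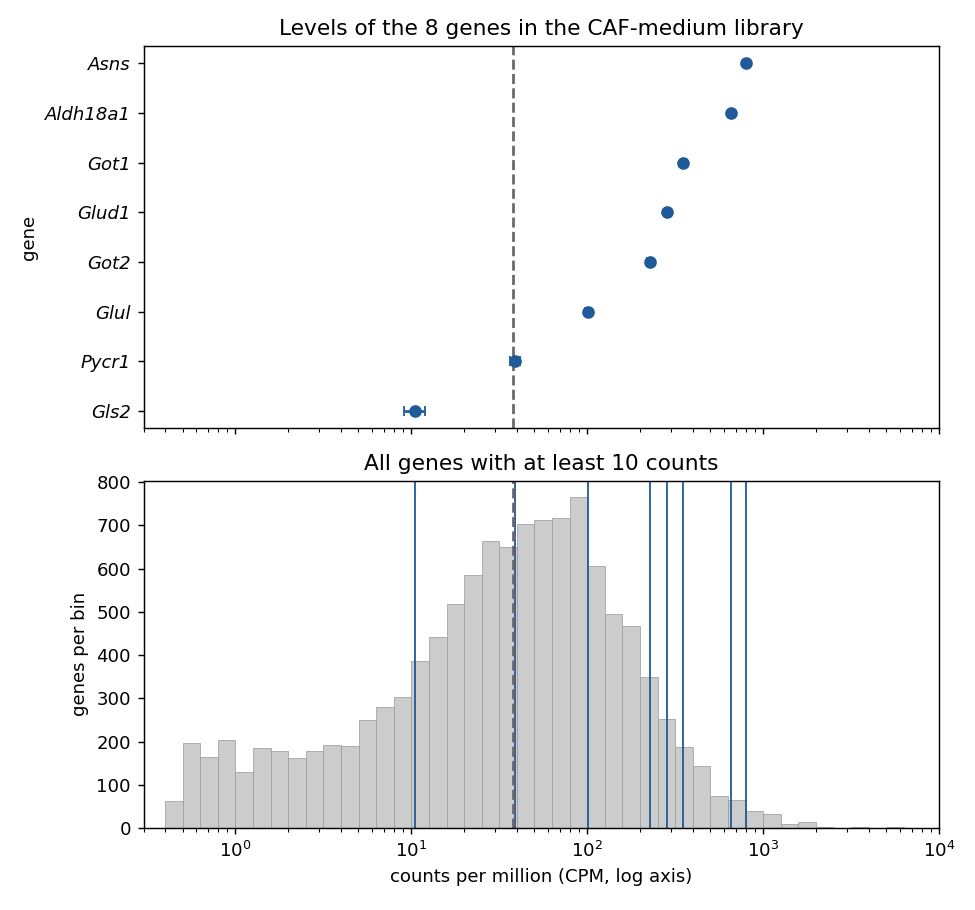
Top: level of each of the 8 genes in the CAF-medium library, in CPM on a log axis, with exact Poisson 95% intervals, which are narrower than the points for most genes. Bottom: number of genes per level bin for all 11567 genes with at least 10 counts, with blue lines at the 8 genes. The dashed line in both is the median gene at 37.9 CPM. Asns and Aldh18a1 lie in the upper tail, Pycr1 lies at the median and Gls2 below it.

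Asparagine synthetase was the highest of the 8 genes. Asns (ENSMUSG00000029752; chromosome 6, 7675169 to 7693254, minus strand, GRCm38) had 16921 counts, or 796 CPM (784 to 808). It ranked 104th of all entries, at percentile 99.1 of genes with at least 10 counts. Per kilobase of all exons it reached 291 CPM (287 to 295), 35.7 times the median gene's 8.14 CPM per kilobase. That was 1.81 times Aldh18a1 (1.77 to 1.85), 2.1 times Got1 (2.04 to 2.16) and 9.59 times Glul (9.17 to 10.0), all per kilobase of all exons. None of its 64-base transcript windows were found in other genes and no exon of another gene overlapped it. Other genes of asparagine handling diverged widely. Nars, which charges tRNA with asparagine in the cytosol, stood at 1164 CPM, and its mitochondrial counterpart Nars2 at 11.8 CPM. Of the asparagine-splitting enzymes, Asrgl1 had 20 counts, or 0.94 CPM, and Aspg was listed at 0. Asnsd1, a gene with an asparagine synthetase domain, had 34 counts, and 56.5% of its exonic bases also lie in other genes' exons. At least 10 counts were reached by 5 of the 6 genes of this list. Their median was 11.8 CPM, and 2, Asns and Nars, exceeded 100 CPM, beside 23.7% of all genes with at least 10 counts. This median depends on the minimum, at 6.7 CPM with none and 796 CPM with at least 100 counts.

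The proline genes of the 8 were far apart, with Aldh18a1 near the top and Pycr1, in CPM, at the median gene. Aldh18a1 encodes the enzyme that turns glutamate into the intermediate from which pyrroline-5-carboxylate (P5C) forms. It lies on chromosome 19 (ENSMUSG00000025007; 40550257 to 40588463, minus strand), 2.91 megabases from Got1. It had 13934 counts, or 655 CPM (644 to 666), ranked 160th of all entries, and stood at 161 CPM per kilobase (158 to 164). Pycr1, a mitochondrial P5C reductase that completes proline (ENSMUSG00000025140; chromosome 11, 120635712 to 120643769, minus strand), had 825 counts, or 38.8 CPM (36.2 to 41.5). That interval includes the median gene, and the percentile was 50.6. This place depends on the minimum count. The percentile was 59.0 among genes with at least 1 count and 41.6 among genes with at least 100 counts. Per kilobase of all exons Pycr1 stood at 9.86 CPM (9.2 to 10.6), above the median gene's 8.14 CPM. On that scale Pycr1 was 0.0613 times Aldh18a1 (0.057 to 0.0657). Neither gene shared windows or exons with another gene.

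Among other proline genes, Pycrl, a cytosolic P5C reductase, had 1298 counts, or 61.0 CPM (57.8 to 64.4), and stood at 45.6 CPM per kilobase of all exons, beside 9.86 CPM per kilobase for Pycr1. Oat, which links ornithine to P5C, stood at 64.7 CPM and Pepd, which frees proline from dipeptides, at 19.7 CPM. Of the breakdown genes, the proline dehydrogenases Prodh and Prodh2 were listed at 0, which is not read as a low level, and Aldh4a1, which turns P5C back into glutamate, had 92 counts, or 4.33 CPM. Of the exonic bases of Aldh4a1, 32.5% also lie in exons of other genes. The proline transporter gene Slc6a7 was listed at 0. In the proline list, 9 of 13 genes reached 10 counts. Their median was 19.7 CPM, with 4.98 CPM for no minimum and 38.8 CPM for at least 100 counts. In this list, as counted here, 1 gene, Aldh18a1, exceeded 100 CPM, beside 23.7% of all genes with at least 10 counts.

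**Figure D2:**
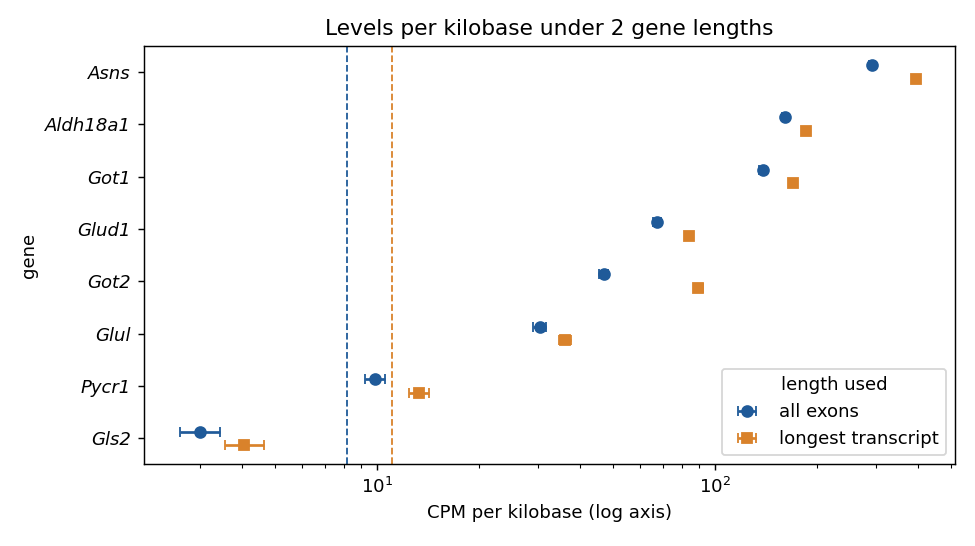
Level of each of the 8 genes per kilobase (CPM per kilobase, log axis), with the length of all exons (circles) or of the longest transcript (squares). Bars are exact Poisson 95% intervals and dashed lines mark the median gene for each length. Asns, Aldh18a1 and Got1 led with both lengths, while Glud1 and Got2 changed places.

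Both aspartate aminotransferases were well above the median gene, with the cytosolic one ahead. Got1 (ENSMUSG00000025190; chromosome 19, 43499752 to 43524605, minus strand) had 7477 counts, or 352 CPM (344 to 359.6), at percentile 95.9. Got2 (ENSMUSG00000031672; chromosome 8, 95864134 to 95888547, minus strand) had 4809 counts, or 226 CPM (220 to 233), at percentile 91.4. Got1 had 1.55 times the counts of Got2 (1.5 to 1.61), 2.95 times per kilobase of all exons (2.85 to 3.06) and 1.91 times per kilobase of the longest transcript (1.84 to 1.98). Got1 held 60.9% of the counts of the pair (Wilson 95% interval 60.0% to 61.7%). Got2 is the less certain value of the pair. Other annotated genes contained 34.2% of its windows, 26.5% in the pseudogene Got2-ps1 and 29.0% in Gm10874, and neither of these is an entry of the count table. Exons of Gm45760, on the opposite strand, overlapped 9.0% of its exonic bases. How the authors' counting treated such reads is unknown here, and their part in the count was not tested. Got1 had no shared windows and no overlapping exons.

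The partners of Got1 and Got2 in the malate-aspartate shuttle, which carries reducing power into mitochondria, were uneven. The mitochondrial malate dehydrogenase Mdh2 stood at 446 CPM, or 125 CPM per kilobase of all exons, beside Got1 at 138 CPM per kilobase. The cytosolic Mdh1 stood at 97.3 CPM, or 37.9 CPM per kilobase. The aspartate-glutamate carriers Slc25a12 and Slc25a13 stood at 48.0 and 47.4 CPM, or 6.53 and 12.5 CPM per kilobase. Among genes that use aspartate, the purine enzymes Adss and Adsl stood at 252 and 104 CPM and the aspartyl-tRNA synthetase Dars at 110 CPM (105 to 114). Ass1, which joins aspartate to citrulline, was listed at 0, but 50.5% of its windows were shared with other genes. Got1l1, a relative of Got1, and the aspartate transporter Slc1a3 were also listed at 0. In the aspartate list, 15 of 19 genes reached 10 counts. Their median was 48.0 CPM, and 6, among them Got1 and Got2, exceeded 100 CPM. Of all genes with at least 10 counts, 23.7% did.

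The enzymes of glutamine and glutamate turnover took the 4th, 6th and 8th places of the 8 genes in CPM. Glud1, the mitochondrial glutamate dehydrogenase (ENSMUSG00000021794; chromosome 14, 34310727 to 34345265, plus strand), reached 284 CPM (277 to 291) from 6043 counts, at percentile 94.1. Glul (ENSMUSG00000026473; chromosome 1, 153899944 to 153909723, plus strand) reached 101 CPM (96.5 to 105) from 2143 counts, at percentile 76.4, and its interval includes the 100 CPM level used above. Gls2, the liver-type glutaminase (ENSMUSG00000044005; chromosome 10, 128194457 to 128210004, plus strand), yielded 222 counts and 10.4 CPM (9.11 to 11.9), at percentile 23.7. It was the sole gene of the 8 below the median gene, at 0.275 times its CPM. Per kilobase of all exons, Glul stood at 30.3 CPM and Glud1 at 67.5 CPM, a ratio of 0.449 (0.427 to 0.472), while Glul stood at 10.1 times Gls2 (8.79 to 11.6).

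Gls2 shared no windows with any other gene, and exons of Spryd4 on the opposite strand overlapped 2.79% of its exonic bases. Spryd4 had 231 counts of its own, and its part in the count of Gls2 was not tested. Of the windows of Glul, 8.19% were found in other genes, mostly the pseudogene Glns-ps1, and of those of Glud1 6.73%. Exons of Teddm2, on the opposite strand, overlapped 3.49% of the exonic bases of Glul. Those of Mir8114, on the same strand, overlapped 2.8%.

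Around these enzymes, other genes of glutamine and glutamate use and transport were mostly above the median gene, with 14 of 17 that reached 10 counts. Slc38a2, a transporter of small neutral amino acids including glutamine, stood at 1242 CPM and the related Slc38a1 at 244 CPM. Psat1, which uses glutamate as nitrogen donor in serine synthesis, stood at 781 CPM, and Gmps, which takes nitrogen from glutamine to make GMP, at 333 CPM. The transporter Slc38a5 and Gfpt2, a glutamine-using enzyme of amino sugar synthesis, were listed at 0. In the glutamine list, 20 of 22 genes reached 10 counts. Their median was 157 CPM, and 12, among them Glul and Glud1, exceeded 100 CPM. The share was 23.7% for all genes with at least 10 counts. Without the members Gls2, Glul and Glud1 the median was 161 CPM over 17 genes.

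Most listed regulators of the response to amino acid shortage were high in the same library as Asns and Aldh18a1. Atf4 stood at 1149 CPM (1134 to 1163), Nupr1 at 381 CPM, Cebpb at 349 CPM and the glutathione-degrading enzyme gene Chac1 at 321 CPM. Ddit3, which encodes CHOP, stood at 256 CPM and Trib3 at 234 CPM. Of the exonic bases of Cebpb 20.7%, and of those of Ddit3 10.9%, also lie in exons of other genes. The part of such genes in these counts was not tested. Eif2ak4, the lowest of the list, stood at 43.2 CPM, at percentile 53.3. Per kilobase of all exons it stood at 5.79 CPM, below the median gene's 8.14 CPM. All 9 regulators reached 10 counts. Their median was 256 CPM, and 8 exceeded 100 CPM, beside 23.7% of all genes with at least 10 counts. Within this list 3 of 9 genes, Trib3, Nupr1 and Chac1, held the core in a promoter, beside 4.51% of all genes. The list was picked for the response in which ATF4 acts, so this share is not independent of the choice of genes. Of the list genes with a matched promoter, the core was in 0 of 17 for glutamine and 1 of 16 for aspartate (Got1). It was in 1 of 4 for asparagine (Asns) and 1 of 9 for proline (Pycr1). Levels in 1 library do not show whether this response was on. In CPM, the members with the core, Asns, Got1 and Pycr1, were 1st, 3rd and 7th of the 8. Aldh18a1, Glud1, Got2 and Glul, without it in their windows, were 2nd, 4th, 5th and 6th. A link between the core and level was not tested.

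**Figure D3:**
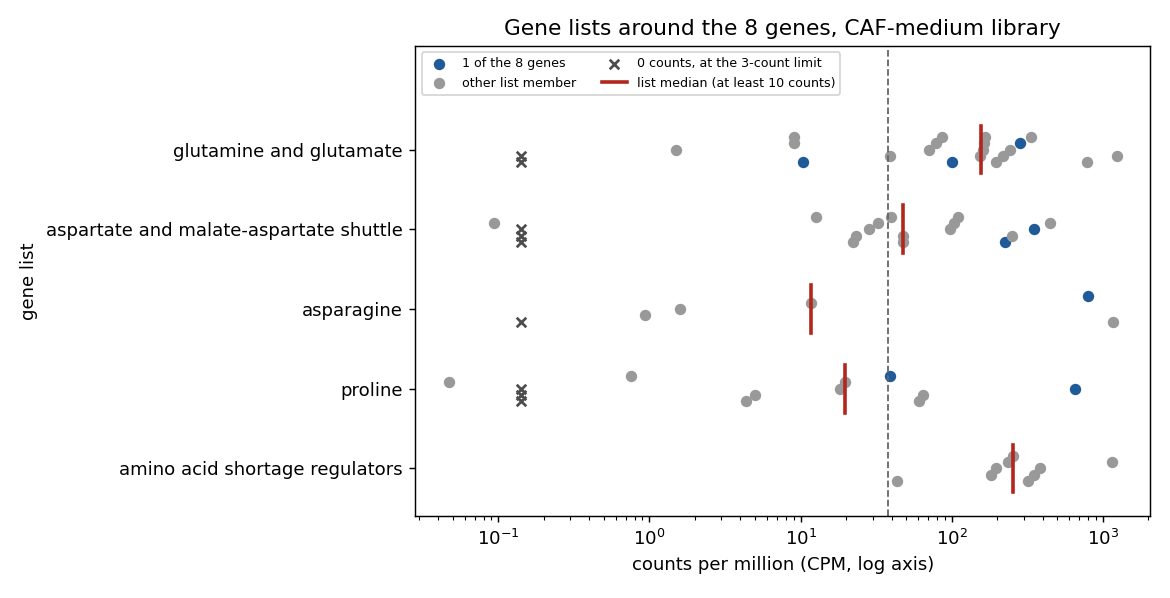
Level of each gene of the 5 lists in the CAF-medium library, in CPM on a log axis. Blue points are the 8 genes, grey points other list members and crosses genes listed at 0, drawn at the limit of 0.141 CPM. Red bars are list medians over members with at least 10 counts and the dashed line is the median gene. The shortage regulators and the glutamine list have medians of 256 and 157 CPM, and the asparagine list 11.8 CPM with Asns and Nars at its top, a median that depends on the minimum count.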

How the data were processed

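RNA of 1 library per medium was sequenced from 2 ug of total RNA, per the labels. The deposited values are whole-number counts per gene symbol, made by the authors. HISAT2 2.1.0, StringTie and mm10 are named in the submitters' processing notes, with no role given. The counting step, its strand setting and its treatment of reads with several matches were not given in the sources available. Of 2 value columns, 1 was not used because its name fits no label. The CAF column carries a word of the CAF-medium library's title. The comparison of media could not be made.

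Counts were divided by the column total to give CPM, and by the length of all exons or of the longest transcript (GENCODE M21, GRCm38, with 99.6% of entries matched) to give CPM per kilobase. Poisson and binomial intervals (exact) and Wilson intervals are at 95% and cover counting error only, not variation between cultures. They treat counts as independent, so they are too narrow where reads are copies of 1 molecule. Shared windows are 64-base windows, every 16 bases of the longest transcript, found exactly in transcripts of other genes. Promoters are from RefSeq.

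The members and lists were chosen with earlier results of these data known, and some list genes are not reported here and were left out of list counts and medians. Named genes are the 8 members and, from each list, up to 6 of the highest with at least 100 counts and those at 0. Mdh1, Slc25a12, Slc25a13, Asrgl1, Asnsd1, Aldh4a1, Eif2ak4 and the genes with shared windows or overlapping exons were chosen after their values were seen. Calculations used scipy 1.17.1, numpy 2.4.6 and pandas 2.3.3 under Python 3.11.15, and figures matplotlib 3.10.9.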

Additional observations from a re-analysis of the deposited data

How the results depend on the processing

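Glud1 and Got2 changed order with the length used, at 1.44 times for Glud1 over Got2 per kilobase of all exons and 1.07 times for Got2 over Glud1 per kilobase of the longest transcript. The other ratios between genes kept their direction. Per kilobase of all exons, Got1/Got2 came to 2.95, Glul/Glud1 to 0.449, Asns/Glul to 9.59, Asns/Got1 to 2.1, and Asns/Aldh18a1 to 1.81. Per kilobase of the longest transcript, Got1/Got2 came to 1.91, Glul/Glud1 to 0.431, Pycr1/Aldh18a1 to 0.0717, Asns/Glul to 10.9, and Asns/Aldh18a1 to 2.12. The median of the 8 genes was 295 CPM without the 100 highest entries in the total, and 57.2 or 86.6 CPM per kilobase with the length of all exons or of the longest transcript. With no minimum count the list medians were 127 CPM for glutamine, 39.7 CPM for aspartate, 6.7 CPM for asparagine and 4.98 CPM for proline. With at least 100 counts they were 796 CPM for asparagine and 38.8 CPM for proline, and without the highest member 6.7 CPM for asparagine and 245 CPM for the regulators. In CPM, the percentile of the list median was 85.6 for glutamine, 56.1 for aspartate, 25.7 for asparagine, 34.6 for proline and 93.1 for the regulators. Per kilobase, it was 73.9 for glutamine, 72.5 for aspartate, 19.2 for asparagine, 43.7 for proline and 98.1 for the regulators. The asparagine and proline medians rest on few genes, so they depend on the minimum. The percentiles of the 8 genes also moved with the minimum count. With at least 1 count, Pycr1 stood at percentile 59.0 and Gls2 at 36.6. With at least 100 counts, Pycr1 stood at 41.6 and Gls2 at 9.78. The comparison of media and its scaling alternatives were not run, and no replicate could be left out. No paired analysis was possible because 1 column was used and each medium had 1 library.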
